A study of Mus musculus with 10 samples.

Results

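The genes described here encode the nuclear subunits of respiratory complexes II, III, IV and V, and RNA sequencing measured their transcripts in heart tissue at 6 weeks of age, from 5 control and 5 iSOD2 mice. Members were chosen by symbol alone, as Sdha to Sdhd, Cyc1, Usmg5 and every symbol beginning with Uqcr, with Cox and a number from 4 to 8, or with Atp5, leaving out Cox4i1, Cox4i2, Cox6a1, Cox6a2, Cox7a1, Cox7a2, Cox8a and Cox8b. This gave 41 of the 24537 genes in the table, 4 of complex II, 9 of complex III, 10 of complex IV and 18 of complex V. Controls were Rosa26-rtTA2+/-;TRE-SOD2-shRNA-/- and iSOD2 mice Rosa26-rtTA2+/-;TRE-SOD2-shRNA+/-. They were littermates born to wild-type C57BL/6J dams that ate doxycycline chow from early gestation until birth. Both genotypes thus carried the transactivator and were exposed to the drug. The transactivator is driven by the Rosa26 promoter, which is active in most cell types and is not specific to the heart, and the hairpin against Sod2 sits at the Col1a1 locus. There were 3 males and 2 females among controls, 2 males and 3 females among iSOD2 mice, and in either genotype litter A gave 2 mice and litter B 3.

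Oxidative phosphorylation takes electrons from NADH and succinate and passes them to oxygen through complexes in the inner mitochondrial membrane. Complex II, succinate dehydrogenase, feeds electrons from succinate into the ubiquinone pool, complex III passes them to cytochrome c, complex IV hands them to oxygen, and complex V, the F1Fo ATP synthase, uses the resulting proton gradient to make ATP. The heart is among the tissues richest in these complexes. Complex II is encoded entirely in the nucleus, while complexes III, IV and V also hold subunits encoded by mitochondrial DNA, whose genes were not analysed here.

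Counts summed over genes ran from 16448090.5 in control 3 to 24263085.5 in iSOD2 5. Sod2, the gene that the hairpin targets, was at 9562 to 11019 normalized counts in controls and 10116 to 11305 in iSOD2 mice (log2 fold change 0.03, SE 0.05, DESeq2 adjusted p = 0.806), so at 6 weeks its transcript level did not separate the genotypes, weeks after doxycycline had ended. The ventricular cardiomyocyte markers Myh6, Tnnt2, Tnni3, Actc1, Myl2, Myl3, Ryr2, Pln, Tnnc1 and Mybpc3 together made up 8.4% to 9.7% of each library's counts. Of 15 hepatocyte markers, all 15 were higher in iSOD2 libraries, at 255 to 11983 summed normalized counts in controls and 5853 to 23938 in iSOD2 mice, or 0.0012% to 0.12% of counts (exact permutation p of their mean log2 level, 0.0238, n = 5 each). None of the 15 was at 0 in every library, 1 of them was called, and their part in the results below was not tested. The summed level of brown adipocyte markers was 331 to 427 in controls and 345 to 410 in iSOD2 mice, and that of skeletal muscle markers 369 to 757 and 376 to 850 (exact permutation p = 0.302 and p = 0.27, n = 5 each). Exact permutation p for the mean log2 level was 0.548 for the cardiomyocyte markers, 0.929 for fibroblast, 0.619 for endothelial, 0.127 for macrophage and 0.111 for erythroid markers (n = 5 each). The tissue was sequenced in bulk, so a lower number of one cell type and less RNA per cell cannot be told apart.

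The promoters of these genes are known for sites of nuclear respiratory factors. NRF1 and the ETS-family factor GABP, also called NRF2, are 2 such regulators, and the latter is distinct from the antioxidant factor of the same short name. In each complex, the sequence printed is that of the member with the lowest adjusted p among those whose start in the count table is the RefSeq start, as the genes whose levels are followed below. Each is the 150 bases before the start of the transcript in the direction of transcription, taken from RefSeq promoters of build GRCm38.p6, with motif matches in capitals.
Sdhb, chr4:140961121-140961270, plus strand: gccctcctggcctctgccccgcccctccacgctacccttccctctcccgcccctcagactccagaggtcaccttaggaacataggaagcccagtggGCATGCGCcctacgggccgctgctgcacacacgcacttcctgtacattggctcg
Uqcr11, chr10:80406822-80406971, minus strand: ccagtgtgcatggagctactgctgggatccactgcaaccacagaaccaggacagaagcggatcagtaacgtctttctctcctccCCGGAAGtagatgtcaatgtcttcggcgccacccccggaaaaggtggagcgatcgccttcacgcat
Cox7b, chrX:106015550-106015699, plus strand: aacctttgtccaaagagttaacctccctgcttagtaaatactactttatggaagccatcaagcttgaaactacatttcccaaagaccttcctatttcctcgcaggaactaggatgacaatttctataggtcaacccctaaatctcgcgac
Atp5l, chr9:44920743-44920892, minus strand: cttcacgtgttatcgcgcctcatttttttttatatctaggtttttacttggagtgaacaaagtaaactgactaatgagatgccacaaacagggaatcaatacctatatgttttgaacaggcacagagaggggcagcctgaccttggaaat
The capitals in the Sdhb promoter mark the NRF1 letters GCATGCGC at positions -54 to -47, counted with the start as 0, and those in the Uqcr11 promoter mark the ETS letters CCGGAAG at positions -66 to -60. A second match to the NRF1 letters in Uqcr11 spans the start, at positions -4 to 3, and so runs past the printed stretch. Sdhb also held the ETS letters at positions 6 to 12, and Atp5l held the NRF1 letters at -240 to -233 and the ETS letters at -212 to -206 and at 24 to 30. No match was found in the printed stretch of Cox7b or Atp5l.

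Over 300-base windows, from 250 bases before to 50 after the start, both strands were searched for NRF1 (GCATGCGC), ETS or GABP (CCGGAAG), YY1 (AAGATGGC) and ERR (TCAAGGTCA), none of which contains another. Windows were matched for 31 of the members and for 12668 of the genes tested. The NRF1 letters were in 6 of 31 member windows (19.4%) and in 4.66% of all windows. The ETS letters were in 10 of 31 (32.3%) against 15.76%, and either of these motifs was in 12 of 31 (38.7%) against 19.44%. The YY1 letters were in the windows of Atp5j2 and Atp5sl, 2 of 31 (6.45%) against 3.99%, and the ERR letters in those of Atp5g3 and Sdhd, 2 of 31 against 0.28%. These are descriptions of letters in a window, with no statement on binding, and of the 9 called members with a window, 5 held the ETS and 2 the NRF1 letters.

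Levels of these transcripts were compared first within each complex, as normalized counts per kilobase of exon averaged over the 10 mice, since levels of different genes compare only per length. In complex II, Sdhb, the iron-sulfur subunit, was the highest at 11295 per kilobase, followed by the flavoprotein Sdha at 7641 and the membrane anchors Sdhc at 5237 and Sdhd at 4183, and each was above the next in 10 of 10 mice. In complex III, Uqcr11 (16884), the core protein Uqcrc1 (15232) and the hinge protein Uqcrh (14649) led, with Uqcr11 above Uqcrc1 in 7 of 10 mice, and Uqcrq was lowest at 2458. Among the 7 complex IV members with a mean of at least 50 counts, which leave out the subunits that the rule set aside, Cox5b (18663) and Cox6b1 (17820) led, with Cox5b the higher in 7 of 10 mice, and Cox7a2l, a factor that joins complexes III and IV into supercomplexes, was at 2371. In complex V, the catalytic subunit Atp5b was highest at 47805, followed by its partner Atp5a1 at 31858, whereas Atp5sl was at 307 and Atp5s at 116. These last are carried by the name rule but are not structural subunits of the ATP synthase: Atp5s encodes a coupling factor-like protein, and Atp5sl a factor for assembly of complex I. The order within each complex was the same under TMM scaling, which changes a factor common to all genes of a library and so could hardly alter it. The exon lengths used as divisors were not varied.

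**Figure D1:**
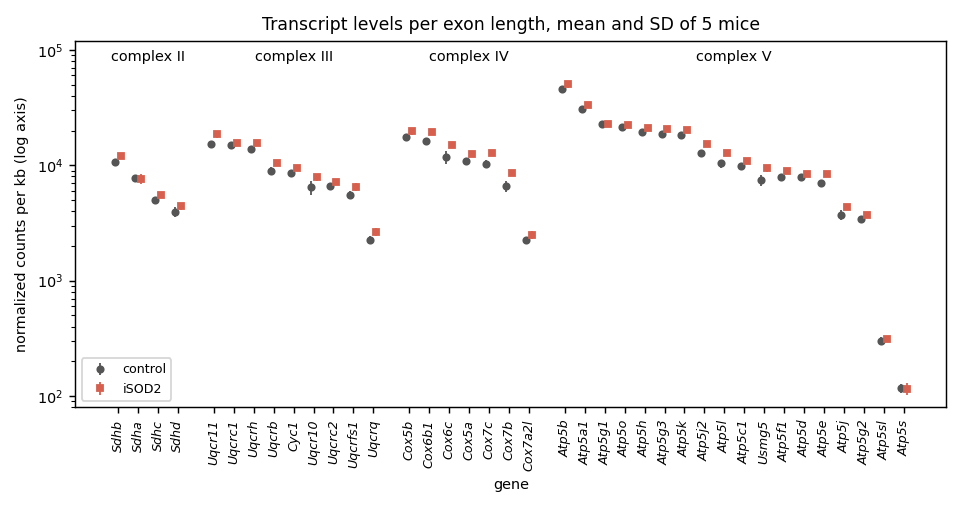
Normalized counts per kilobase of exon (log axis) of the complex II to V transcripts, as mean and SD of 5 control mice (grey circles) and 5 iSOD2 mice (red squares), genes ordered by level within each complex. Atp5b at 47805 per kilobase led all members and Atp5s at 116 was the lowest of those with at least 50 counts.

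Of the 41 members, 39 had at least 10 counts over the 10 libraries and were tested. Cox8c, a testis-type isoform, had 0 counts and Cox7b2, another isoform known from testis, had 7 counts in all. Cox6b2, the testis isoform of Cox6b1, was tested, with normalized counts of 12.8 ± 3.65 in controls and 13.1 ± 3.08 in iSOD2 mice (mean ± SD of 5 mice), and received no adjusted p. Members differed little between mice of a genotype, with a median coefficient of variation of 5.59% in controls and 5.3% in iSOD2 mice. Together they took 2.182, 2.075, 2.09, 2.308 and 2.153% of the gene counts in controls 1, 2, 3, 4 and 6, and 2.507, 2.445, 2.389, 2.335 and 2.392% in iSOD2 mice 5, 7, 8, 9 and 10. Every iSOD2 heart was above every control heart in this share, and control 4 came closest.

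The genotype comparison asked whether these transcripts stood at a different level in adult hearts after the embryonic exposure. In all, 10 members met both thresholds of the study, an adjusted p of at most 0.05 and a log2 fold change above 0.25, and all 10 were higher in iSOD2 mice: Uqcr10 and Uqcr11 of complex III, Cox6b1, Cox6c, Cox7b and Cox7c of complex IV, and Atp5e, Atp5j2, Atp5l and Usmg5 of complex V. Of all genes with an adjusted p, 1.26% were called higher and 1.7% lower in DESeq2, and 0 members were called lower (0 at an unadjusted p under 0.05 by DESeq2 or edgeR). The adjusted p alone was passed by 20 members, all higher, against a background of 3.04%. The log2 fold change was above 0 in 37 of the 39 tested members, against 49.6% of all genes, with a median of 0.16 (range -0.02 to 0.36), while the median over all genes was -0.002. In 17 members every iSOD2 mouse was above every control, a pattern seen in 2.08% of genes tested, and in 0 members was it the reverse (1.65%). With the quasi-likelihood test of edgeR the fold changes had nearly the same median (0.16), but 0 members and 0 of all 17746 genes were called. The lowest edgeR adjusted p was 0.0662, over members and over all genes alike. At an unadjusted p under 0.05 were 30 members, all higher, against 8.58% of genes. The number called was 5 without control 3 and 6 without iSOD2 5, where 99 of 15234 and 63 of 8384 genes with an adjusted p were called higher.

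By size, the fold threshold divided members that lay close together. Cox6b1, Atp5j2 and Atp5e were just above it, each with a log2 fold change of 0.255, and Uqcrb (0.242), Atp5j (0.228) and Uqcrq (0.227) lay just below it with an adjusted p under 0.05. Atp5l, Cox6c, Cox7b, Cox7c and Usmg5 were called whichever mouse was left out. Uqcr11 was not called without control 3 (lowest log2 fold change 0.246), nor Atp5e without control 3, iSOD2 5 or iSOD2 7 (0.224), nor Cox6b1 (0.229) and Atp5j2 (0.238) without control 1, 3 or 6 or iSOD2 5. Uqcr10 lost its call without control 1, 2 or 3 or iSOD2 5, 7 or 8 (0.232).

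**Figure D2:**
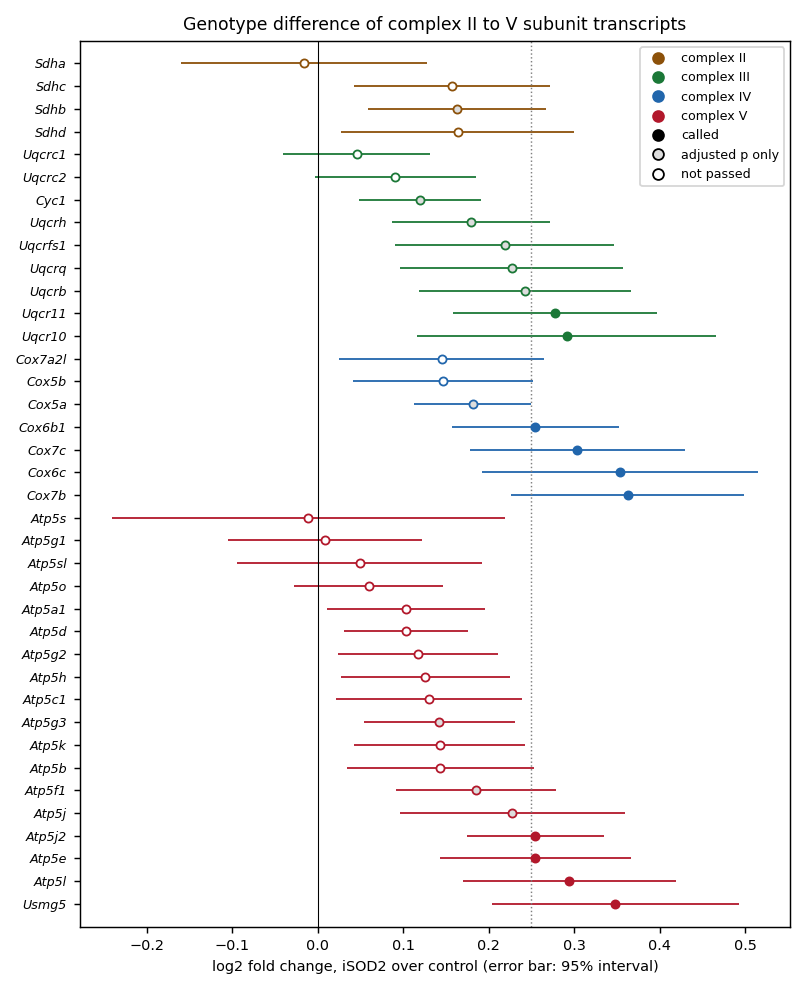
Log2 fold change, iSOD2 over control, of the 38 members with at least 50 counts on average, by complex, with bars for 95% confidence intervals; filled symbols are called, grey symbols pass the adjusted p alone, open symbols pass neither, and the dotted line marks the fold threshold of 0.25. All points but Sdha and Atp5s lie right of 0, and the 10 called members run from 0.25 to 0.36.

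Complex II links the citric acid cycle to the respiratory chain. Of its 4 subunits 0 were called in DESeq2, against 1.26% of genes with an adjusted p called higher. In edgeR 0 were called, as were 0 of all genes. At an unadjusted p under 0.05 were 3 subunits in each tool, all higher. Over all genes, 1292 of 17739 were higher at that p in DESeq2 and 8.58% in edgeR. In DESeq2 1 subunit, Sdhb, passed the adjusted p alone, and the median log2 fold change over the 4 was 0.16. Sdha, the flavoprotein that oxidises succinate (NM_023281, chromosome 13, 74322255 to 74350240, mm10), was at 23118, 23162, 20827, 21951 and 20117 normalized counts in controls 1, 2, 3, 4 and 6 and at 23751, 24099, 21088, 19713 and 19322 in iSOD2 mice 5, 7, 8, 9 and 10, the order used throughout. The genotypes overlapped fully, with the lowest value and the highest value both in iSOD2 mice (log2 fold change -0.02, SE 0.07, DESeq2 adjusted p = 0.935). Sdhb, which carries the iron-sulfur clusters (NM_023374, chromosome 4, 140961271 to 140979192), was at 11459, 11815, 10477, 11947 and 10948 in controls and 13676, 12888, 12724, 12180 and 11953 in iSOD2 mice. The lowest iSOD2 value, that of mouse 10, lay only just above the highest control value, that of mouse 4 (log2 fold change 0.16, SE 0.05, DESeq2 adjusted p = 0.0406).

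The membrane anchors, which bind ubiquinone, did not pass the adjusted p. Sdhc was at 6001, 5631, 5637, 6352 and 5374 in controls and 7021, 6620, 6095, 6275 and 6317 in iSOD2 mice (log2 fold change 0.16, SE 0.06, DESeq2 adjusted p = 0.084). Control 4 stood inside the iSOD2 range and the other 4 controls below it. Sdhd was at 4983, 4737, 5244, 5723 and 4544 in controls and 6297, 5462, 5386, 5524 and 5597 in iSOD2 mice (log2 fold change 0.16, SE 0.07, DESeq2 adjusted p = 0.143), with control 4 again inside the iSOD2 range and iSOD2 5 well above its group.

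Complex III, cytochrome bc1, oxidises ubiquinol. Of its 9 nuclear subunits 2 were called, 7 passed the adjusted p, 4 did not overlap between genotypes, and the median log2 fold change was 0.22. Of genes with an adjusted p, 1.26% were called higher and 3.04% were higher and passed it. Of genes tested, 2.08% did not overlap in that direction. Shares among short genes are given below. The small subunits without redox groups, Uqcr10, Uqcr11, Uqcrb, Uqcrh and Uqcrq, had a median of 0.24 (range 0.18 to 0.29) and all 5 passed the adjusted p. The redox subunits, cytochrome c1 (Cyc1, 0.12) and the Rieske protein (Uqcrfs1, 0.22), both passed it below the fold threshold, and the large core proteins Uqcrc1 (0.05, DESeq2 adjusted p = 0.606) and Uqcrc2 (0.09, DESeq2 adjusted p = 0.272) did not. Cyc1 had 10249 ± 325 in controls and 11135 ± 282 in iSOD2 mice (mean ± SD of 5 mice), and the genotypes did not overlap, while its log2 fold change was -0.006 once the trend of counts with exon length, fitted in each library, was removed (adjusted p = 0.982). The small, redox and core groups also differed in exon length, with medians of 497, 1247 and 1753.5 bases. With that trend removed their median log2 fold changes were 0.144, 0.0459 and -0.0199. The groups were not tested against each other.

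Uqcr11, a small membrane subunit (NM_025650, chromosome 10, 80402997 to 80406821), was at 6546, 6323, 5996, 7137 and 6888 normalized counts in controls and 8439, 8349, 8083, 7760 and 7249 in iSOD2 mice, with no overlap (log2 fold change 0.28, SE 0.06, DESeq2 adjusted p = 0.000848). It was both the member of complex III with the highest level per kilobase and the one with the lowest adjusted p. Uqcrb, which helps to form the quinone-binding region (NM_026219, chromosome 13, 66900621 to 66905350), was at 4331, 4457, 3859, 4796 and 4632 in controls and 5426, 5552, 4906, 5091 and 5147 in iSOD2 mice (log2 fold change 0.24, SE 0.06, DESeq2 adjusted p = 0.00657). Here too every iSOD2 heart was above every control, control 4 being nearest. Uqcrh, the hinge protein between cytochrome c1 and cytochrome c (NM_025641, chromosome 4, 116066965 to 116075070), was at 7609, 7468, 6798, 7694 and 7523 in controls and 8583, 8680, 8307, 8572 and 7869 in iSOD2 mice, again without overlap (log2 fold change 0.18, SE 0.05, DESeq2 adjusted p = 0.00726). Uqcr10 was called at 0.29 on the log2 scale (SE 0.09, DESeq2 adjusted p = 0.0262), although control 4 reached into the iSOD2 range.

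Complex IV, cytochrome c oxidase, has its catalytic core encoded in mitochondrial DNA, and its nuclear subunits surround that core. Of the 8 tested, 4 were called, 5 passed the adjusted p, 5 did not overlap between genotypes, and the median log2 fold change was 0.22. The shares over all genes were 1.26%, 3.04% and 2.08%, as for complex III. Cox7b, a small membrane subunit (NM_025379, chromosome X, 106015700 to 106022450), had the largest fold change of all members. It was at 6318, 6115, 6071, 7753 and 6638 normalized counts in controls and 8738, 8628, 8801, 8056 and 8077 in iSOD2 mice, and control 4 lay closest to the iSOD2 range, with the other controls well below (log2 fold change 0.36, SE 0.07, DESeq2 adjusted p = 0.000124). Cox5a, which lies on the matrix side of the complex (NM_007747, chromosome 9, 57521232 to 57532426), was at 7564, 7542, 7175, 7755 and 7530 in controls and 8210, 8705, 8596, 8644 and 8457 in iSOD2 mice. This was a smaller shift with a narrow spread and no overlap (log2 fold change 0.18, SE 0.03, DESeq2 adjusted p = 0.000124).

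Cox6b1, on the intermembrane side near the cytochrome c site (NM_025628, chromosome 7, 30616974 to 30626151), was at 8040, 8325, 7825, 8743 and 7614 in controls and 10358, 9514, 9498, 9691 and 9315 in iSOD2 mice. The groups were apart, with iSOD2 5 the highest of all (log2 fold change 0.25, SE 0.05, DESeq2 adjusted p = 0.000132). Cox5b, a zinc-binding subunit on the matrix side and the highest per kilobase of these members (NM_009942, chromosome 1, 36691487 to 36693388), was at 10435, 10504, 9340, 9743 and 9842 in controls and 10658, 12154, 10903, 11062 and 10431 in iSOD2 mice. It did not pass (log2 fold change 0.15, SE 0.05, DESeq2 adjusted p = 0.0775), and controls 1 and 2 overlapped the iSOD2 range. The other called members were the membrane subunits Cox6c (log2 fold change 0.35, DESeq2 adjusted p = 0.00188) and Cox7c (0.30, 0.000498), each higher in every iSOD2 heart than in any control.

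**Figure D3:**
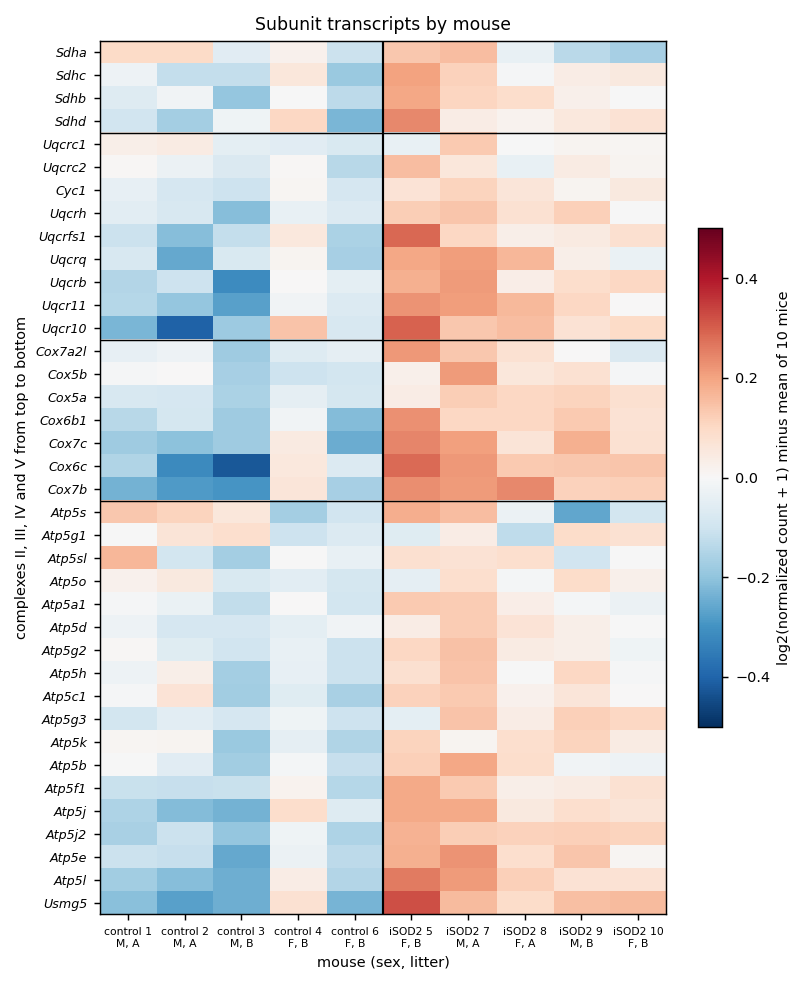
Heat map of 38 complex II to V transcripts (rows, by complex) in the 10 hearts (columns, with sex and litter), coloured by log2(normalized count + 1) minus the mean of the 10 mice, red above and blue below. Red fills most iSOD2 cells and blue most control cells, with control 4 paler than the other controls and averages over members from -0.15 to -0.005 in controls and 0.03 to 0.15 in iSOD2 mice.

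Complex V turns the proton gradient into ATP through a rotating F1 head and a membrane-embedded Fo part. Of its 18 members 4 were called, 7 passed the adjusted p, 7 did not overlap between genotypes, and the median log2 fold change was 0.14. The shares over all genes were again 1.26%, 3.04% and 2.08%. By place in the enzyme the small membrane subunits Atp5j2, Atp5k, Atp5l and Usmg5 had a median of 0.275 (3 of 4 called, no overlap in any of the 4), the peripheral stalk Atp5f1, Atp5h, Atp5j and Atp5o 0.16 (0 called, 2 past the adjusted p), the F1 head and central stalk 0.13 (1 of 5 called, Atp5e) and the 3 genes of the c ring 0.12 (0 called). Groups of so few genes are described and were not tested against each other. They also differed in exon length, with medians of 403, 809.5, 1788 and 717 bases in the same order. With the trend of counts with exon length removed, their median log2 fold changes were 0.177, 0.056, 0.0665 and 0.0133.

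Atp5j2, subunit f of the membrane part (NM_020582, chromosome 5, 145183706 to 145191592), had the lowest adjusted p of all members. It was at 5914, 6137, 5783, 6507 and 5938 normalized counts in controls and 7454, 7193, 7155, 7189 and 7138 in iSOD2 mice, with no overlap and 4 of the 5 iSOD2 values within a narrow band below iSOD2 5 (log2 fold change 0.25, SE 0.04, DESeq2 adjusted p = 2.89e-06). Usmg5, also called DAPIT, a small membrane subunit of the ATP synthase (NM_023211, chromosome 19, 47083471 to 47090625), was at 2410, 2305, 2347, 2932 and 2370 in controls and 3477, 3106, 2966, 3089 and 3101 in iSOD2 mice. Control 4 was above the other controls and just below the lowest iSOD2 heart (log2 fold change 0.35, SE 0.07, DESeq2 adjusted p = 0.000541). Atp5l, subunit g (NM_013795, chromosome 9, 44913248 to 44920742), was at 5167, 5028, 4919, 5974 and 5265 in controls and 6984, 6751, 6335, 6128 and 6123 in iSOD2 mice (log2 fold change 0.29, SE 0.06, DESeq2 adjusted p = 0.000662). Its groups did not overlap, and reads from copies of its sequence elsewhere are uncertain, as given below. Atp5e, the epsilon subunit of the central stalk, was called at 0.25 (SE 0.06, DESeq2 adjusted p = 0.000984).

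The beta and alpha subunits of the F1 head, Atp5b and Atp5a1, rank first and second in level and did not pass the adjusted p. Atp5b, the beta subunit (NM_016774, chromosome 10, 128083307 to 128090388), was at 88814, 85643, 78922, 88466 and 82256 normalized counts in controls and 96581, 101878, 94661, 87867 and 87422 in iSOD2 mice. In 3 of the iSOD2 hearts the value was above every control and in the other 2 it was inside the control range (log2 fold change 0.14, SE 0.06, DESeq2 adjusted p = 0.101). Atp5a1, the alpha subunit, had 74259 ± 2767 in controls and 79741 ± 4198 in iSOD2 mice (mean ± SD of 5 mice, DESeq2 adjusted p = 0.187). Atp5s was at 188.1, 185, 178, 152.1 and 159.9 in controls and 194.2, 190.6, 167.5, 142.8 and 160.2 in iSOD2 mice, with full overlap (log2 fold change -0.01, SE 0.12, DESeq2 adjusted p = 0.975). Together with Sdha it was the only tested member with a log2 fold change below 0.

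The c ring of ATP synthase is built from copies of 1 mature protein that 3 genes, Atp5g1, Atp5g2 and Atp5g3, encode behind different import signals. Atp5g1 (NM_001161419, chromosome 11, 96072793 to 96075631) was at 18078, 18903, 19176, 16850 and 17256 normalized counts in controls and 17321, 18548, 16565, 19292 and 19071 in iSOD2 mice, with full overlap (log2 fold change 0.01, SE 0.06, DESeq2 adjusted p = 0.96). Atp5g2 (NM_026468, chromosome 15, 102662868 to 102671047), the scarcest, was at 2276, 2170, 2119, 2205 and 2104 and 2429, 2507, 2326, 2309 and 2228 (log2 fold change 0.12, SE 0.05, DESeq2 adjusted p = 0.121). Atp5g3 (NM_001301721, chromosome 2, 73908447 to 73911326) was at 13104, 13452, 13158, 13761 and 12992 and 13482, 15424, 14307, 15144 and 15010, with only iSOD2 5 inside the control range (log2 fold change 0.14, SE 0.05, DESeq2 adjusted p = 0.0327). Of their summed counts per kilobase, Atp5g1 supplied 50.7% ± 1.64 in controls and 48.5% ± 1.17 in iSOD2 mice (mean ± SD of 5 mice), which is -2.25 percentage points (two-sided exact permutation p = 0.0397, Benjamini-Hochberg adjusted over the 3 genes 0.0714). Atp5g3 supplied 41.6% ± 1.43 and 43.6% ± 0.985 (difference 2.0, exact permutation p = 0.0476, adjusted 0.0714, n = 5 each) and Atp5g2 7.63% ± 0.313 and 7.88% ± 0.572 (exact permutation p = 0.413). No share passed the adjustment with all 10 mice, and Atp5g1 and Atp5g2 share most of their sequence with copies elsewhere, as given below. Control 4 held 48.3% Atp5g1, inside the iSOD2 range of 46.8% to 49.5%, and the other controls 50.2% to 52.6%. Without control 4 the differences were -2.87 points for Atp5g1 and 2.56 for Atp5g3, each with an adjusted exact permutation p of 0.0238. That was the only omission that passed. Without any other single mouse the adjusted exact permutation p was 0.0952 to 0.143 for either gene.

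**Figure D4:**
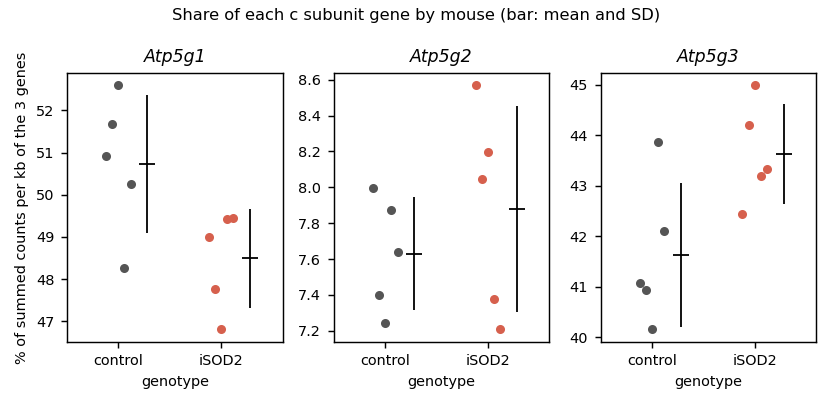
Share of the summed counts per kilobase of the c subunit genes held by Atp5g1, Atp5g2 and Atp5g3 in each heart, in percent on axes that do not start at 0, with bars for the mean and SD of each genotype. Atp5g1 averaged 50.7% in controls and 48.5% in iSOD2 mice, and control 4 at 48.3% sat within the iSOD2 values.

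By mouse, the average over members separated the genotypes. The mean log2 deviation over the 38 members with at least 50 counts was -0.06, -0.10, -0.15, -0.005 and -0.12 in controls 1, 2, 3, 4 and 6 and 0.15, 0.14, 0.06, 0.06 and 0.03 in iSOD2 mice 5, 7, 8, 9 and 10, and the genotypes did not overlap. Control 4 was the highest control and control 3 the lowest, while iSOD2 mice 5 and 7 were the highest of their group. Between 25 and 38 members were above their own 10-mouse mean in each iSOD2 heart, against 17 in control 4 and 0 to 9 in the other controls.

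Most members shared a short exon length, which the rule did not use. Called members were short, with exons of 335 to 996 bases, and over the 38 members the log2 fold change ran against exon length (Spearman rho -0.622), as it did over 12151 genes with a mean of at least 50 counts (rho -0.471). Against level per kilobase the rho over members was -0.0496. These are descriptions across genes of the same 10 libraries. Levels relative to the 10-mouse mean rose with log2 exon length in all 5 controls (slopes 0.00629 to 0.0527, control 4 the lowest) and fell with it in all 5 iSOD2 libraries (slopes -0.051 to -0.018), so that the whole table shifted with length between genotypes. Among the 2431 shortest of these genes (53 to 1677 bases), the median log2 fold change was 0.11, 3.41% were called higher and 9.13% did not overlap. They included 32 of the 38 members, with a median of 0.18, 10 called and 17 not overlapping.

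Members were then set beside genes of like length. Up to 600 bases, 251 genes had a median log2 fold change of 0.14 (9.16% called higher), and the 14 members there had a median of 0.255, 13 of them above that of the 251 and 9 called. From 600 to 1000 bases 592 genes had a median of 0.13 and the 8 members one of 0.13, with 4 above. From 1000 to 1500 bases the medians were 0.10 over 1121 genes and 0.16 over 7 members, with 6 above, and from 1500 to 3000 bases 0.03 over 4117 genes and 0.10 over 9 members, with 8 above. When each library's smooth trend with length was taken out before the test, the median of the members was 0.05 and that of all genes -0.01, with 31 members higher and 8 lower. The shortest genes, Usmg5 among them, all received the correction of the lower limit of the fitted lengths. A trend remaining among these shortest genes was therefore not taken out. After the removal 1 member was called, Usmg5 (0.25, DESeq2 adjusted p = 0.0246), against 0.376% of genes with an adjusted p. Cox7b (0.24, adjusted p = 0.0131) and Atp5j2 (0.16, adjusted p = 0.0362) passed the adjusted p alone. At an unadjusted p under 0.05 were 12 members, all higher, against 4.32% of genes, and 1, Atp5j2, did not overlap between genotypes (0.823%). With GC content taken out as well, 0 members were called in DESeq2 (lowest adjusted p 0.0649), while 27 of 11552 genes with an adjusted p were called higher. At an unadjusted p under 0.05 were 10 members, all higher, against 771 of 17739 genes. By mouse, the mean deviation after the length trend was 0.03, -0.01, -0.11, -0.007 and -0.08 in controls and 0.10, 0.125, 0.02, -0.006 and -0.05 in iSOD2 mice, so the genotypes overlapped.

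**Figure D5:**
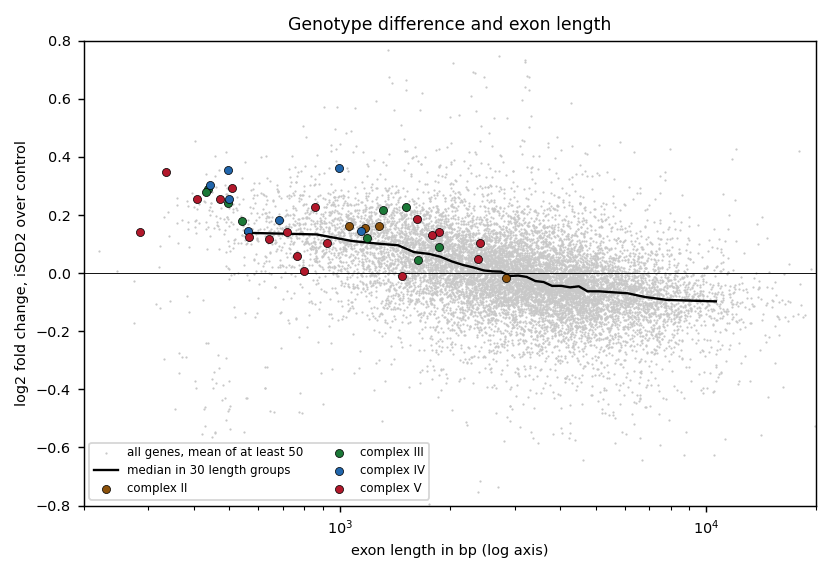
Log2 fold change, iSOD2 over control, against exon length in bases (log axis) for 12151 genes with at least 50 counts on average (129 lie outside the axes), with complex II to V members coloured and a line of medians over 30 length groups. Short genes lie higher as a whole, and of the 14 members up to 600 bases 13 are above the median of all genes of that length.

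Sex and litter were tested in the same 10 hearts, each in a separate model with genotype. Among controls, the litter A mice, 1 and 2, were males, and the females, 4 and 6, were of litter B. In iSOD2 mice litter A held male 7 and female 8, and litter B male 9 and females 5 and 10. Contrasts of sex or litter, and fits within a sex or litter, therefore each carry part of the other factor. Between females and males 0 members were called in DESeq2, against 0.445% of all genes tested, with 6 at an unadjusted p under 0.05 (6.62% of genes). In edgeR 0 members were called, while 17 of 17746 genes were called higher and 12 lower in females. At an unadjusted p under 0.05 in edgeR were 3 members (8.5% of genes). Between litters B and A 0 were called in DESeq2, against 3.09%, with 2 at an unadjusted p under 0.05 (13.0%), and 0 in edgeR, with 1 (16.1%). The test of genotype by sex called 0 members and 0.0% of genes. Its unadjusted p was under 0.05 in 2 members in DESeq2, against 1.18% of genes, and in 1 in edgeR (2.76% of genes), Atp5j in both. The genotype difference was smaller in females than in males by 0.25 on the log2 scale for Atp5j and by 0.28 for Cox6c, each with a DESeq2 adjusted p of 1. Genotype by litter called 0 members in either tool, against 0.00564% of genes in DESeq2, with 0 at an unadjusted p under 0.05 (1.79%). Within males the median log2 fold change was 0.18 with 36 of 39 members higher, 12 called (1.26% of genes with an adjusted p) and 24 at an unadjusted p under 0.05 (2.7%). Shares called within a sex or litter are of genes with an adjusted p. Those of the sex, litter and interaction terms are of all genes tested, so the 2 kinds do not compare directly. Within females it was 0.14 with 38 of 39 higher and 0 called (0.547%, lowest DESeq2 adjusted p 0.603), 6 being at an unadjusted p under 0.05 (2.68%). Within litter A it was 0.16 with 10 called (1.01%) and 21 at an unadjusted p under 0.05 (2.98%), and within litter B 0.17 with 0 called (0.226%, lowest DESeq2 adjusted p 0.0937) and 20 at an unadjusted p under 0.05 (3.48%). Members wholly above the controls numbered 30 in males (13.1% of genes), 23 in females (12.8%), 29 in litter A (23.0%) and 23 in litter B (8.2%).

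Other genes of the pathway came from lists of assembly factors, electron carriers and exchangers. Of 4 complex II assembly factors 1 was called higher, Sdhaf1, which helps to load iron-sulfur clusters into Sdhb (245.1, 280.5, 243.2, 272.6 and 265.1 in controls, 298.9, 339.8, 329.8, 322.8 and 278.1 in iSOD2 mice, log2 fold change 0.26, SE 0.09, DESeq2 adjusted p = 0.0472). iSOD2 10 lay inside the control range, and with the length trend removed Sdhaf1 was no longer called (0.14, adjusted p = 0.613). Of 6 complex III assembly factors 0 were called and 1 was at an unadjusted p under 0.05 in DESeq2. Over all 17739 genes, 1292 were higher and 1050 lower at that p. The median of the 6 was 0.02, and the largest value was that of Uqcc3 (0.20, DESeq2 adjusted p = 0.101). Of 22 complex IV assembly factors 2 were called higher and 1 lower, with a median of 0.09. Beside the calls in these lists, 1.26% of all genes with an adjusted p were called higher and 1.7% lower.

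The complex IV factors that were called went in both directions. Cox17, the copper chaperone (731.6, 600.4, 637, 736.8 and 645.5 in controls, 844.4, 880.6, 899.5, 827.6 and 805 in iSOD2 mice), did not overlap (log2 fold change 0.34, SE 0.07, DESeq2 adjusted p = 0.000456). Pet100, an assembly chaperone, was at 215.2, 169.5, 248.3, 287.4 and 226.6 in controls and 314.1, 301.5, 283.9, 295.4 and 294.1 in iSOD2 mice, with control 4 inside the iSOD2 range (log2 fold change 0.37, SE 0.12, DESeq2 adjusted p = 0.0316). Taco1, which activates translation of the mitochondrially encoded subunit 1 of complex IV, was lower, at 863.7, 897.6, 970.5, 774.4 and 769 in controls and 675.5, 655.8, 612, 678 and 675.8 in iSOD2 mice, every iSOD2 heart below every control (log2 fold change -0.37, SE 0.08, DESeq2 adjusted p = 0.00027). With the length trend removed Taco1 was at -0.495 (adjusted p = 1.29e-05), Cox17 at 0.245 (0.0647) and Pet100 at 0.25 (0.296).

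In the remaining lists 0 genes were called in DESeq2, against 1.26% higher and 1.7% lower of genes with an adjusted p. In edgeR 0 of all genes were called. The 5 complex V assembly factors and inhibitor had a median of 0.11, with Tmem70 at 0.16 (DESeq2 adjusted p = 0.199), and 3 were at an unadjusted p under 0.05 in DESeq2. Over all 17739 genes, 1292 were higher and 1050 lower at that p, the background for each list here. The 12 genes of mobile carriers had a median of 0.06, with 4 at an unadjusted p under 0.05. Among them Cycs, cytochrome c itself, was at 9632, 9511, 10239, 11766 and 9718 in controls and 12766, 11305, 10813, 12217 and 12418 in iSOD2 mice, with control 4 inside the iSOD2 range, and passed the adjusted p below the fold threshold (log2 fold change 0.23, SE 0.07, DESeq2 adjusted p = 0.0282, and 0.24 with 0.0384 after the length trend). The 7 genes of ATP and phosphate exchange had a median of 0.09, all 7 above 0 and 4 at an unadjusted p under 0.05. Slc25a4, the main ADP/ATP exchanger of heart, was at 57840, 58323, 56186, 61314 and 54881 in controls and 69761, 66291, 62832, 61970 and 64803 in iSOD2 mice, without overlap (log2 fold change 0.17, SE 0.05, DESeq2 adjusted p = 0.00797), and at 0.05 with an adjusted p of 0.772 after the length trend.

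Several members share sequence with copies elsewhere in the genome, so their counts are uncertain where reads could be split. Of the 50-base windows along the transcript, the share also found in transcripts of other genes was 87.4% for Atp5g2, 68.5% for Atp5l, 66.0% for Atp5g1, 53.0% for Cox7c, 50.5% for Atp5h, 43.2% for Uqcrb and 40.6% for Usmg5. It was 0.0% for Atp5g3 and Cox6b1, 0.63% for Cox7b and 3.75% for Atp5j2. The windows follow a matched annotated transcript, which can differ in length from the counted exons. For Atp5j2 it was 955 bases against 471, and for Atp5g1 596 against 798. Exons of Atp5a1, Atp5f1, Atp5j, Atp5l, Atp5o, Cox5a, Uqcrb, Uqcrc2 and Usmg5 overlap a gene on the opposite strand. The overlap runs from 12 bases (Usmg5 with Taf5) to 504 bases (Uqcrc2 with Pdzd9). Reads of these pairs cannot be told apart where strand was not used in counting. Atp5o also shares 243 exon bases with another annotated gene of the same name on the same strand.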

How the data were processed

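Libraries were prepared from total RNA of heart tissue with a stranded, ribosome-depleted kit. The authors trimmed libraries that held adapters with Trim Galore, without saying whether these did, aligned reads to mm10 with STAR and summed them over exons with HOMER, with no strand option stated. The deposited values are estimated counts in steps of 0.5, unnormalized, beside another column, the exon length in base pairs, that the deposited table gives for each gene. All 10 count columns were used.

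Counts were rounded, genes with fewer than 10 counts over the libraries were left out (17746 kept), and genotypes were compared in R 4.3.3 with DESeq2 1.42.0 (Wald test, no covariates), following the study's methods. Fold changes were not shrunken. A gene was called at a Benjamini-Hochberg adjusted p of at most 0.05 and an absolute log2 fold change above 0.25. Independent filtering left 9489 genes with an adjusted p. Normalized counts are counts divided by DESeq2 size factors. Single values were compared by two-sided exact permutation over 252 arrangements (smallest p 0.00794). The trend with length was a spline of 4 degrees of freedom fitted per library on genes with a mean of at least 50 counts. Lengths in the outermost few percent at either end were set to the limit of the remaining range, and GC content likewise. The models were tested on simulated data.

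Alternatives were edgeR 4.0.16, TMM scaling, other count filters, covariates, each sex or litter alone, length and GC trends and leaving out each mouse. The members, the gene lists and the tests were chosen with earlier results of these data known, and the groups of subunits by role were drawn up from textbook roles after the values were seen. Values by mouse are given for complex II, for the 3 lowest adjusted p and the highest level per kilobase of each other complex, for members at or below 0 and for the c subunits, and for the called or largest genes of the other lists. The remaining called members are named as a count requires. Libraries all differed beyond sampling noise (lowest pairwise chi-square per degree of freedom 5.7). Mice are separate samples in the labels.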

Additional observations from a re-analysis of the deposited data

Results flagged for a closer look

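In 9 of 84 groups of 5 mice, a mouse stood far from the other 4 of its genotype by Dixon's ratio (critical value 0.71). Chance would flag about 1 in 20 independent groups, or 4.2 here. The groups are not independent, as they hold transcripts of the same mice, so 9 cannot be weighed against 4.2. Control 4 was high for Usmg5 (2932 normalized counts, others 2305 to 2410), Cox7c (5223, others 4263 to 4474) and Atp5f1 (13782, others 12318 to 12614). iSOD2 5 was high for Uqcrfs1 (9574, others 8002 to 8416), Atp5j2 (7454, others 7138 to 7193), Usmg5 (3477, others 2966 to 3106) and Sdhd (6297, others 5386 to 5597). Control 3 was low for Cox7a2l (2387, others 2582 to 2655) and Uqcrh (6798, others 7468 to 7694). These are the same mice whose omission moved the number of called members most.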

How the results depend on the processing

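The number of members called higher, 10 with all mice, was 10 under TMM scaling, without a count filter and with a mean of at least 50 counts, 9 with sex and litter as covariates, 12 in males and 10 in litter A. It was 0 with edgeR, where 0 of all genes were called, 0 in females, 0 in litter B and 20 without the fold threshold. With the length trend removed it was 1, and 37 of 9833 genes with an adjusted p were called higher. With length and GC removed it was 0, and 27 of 11552 such genes were called higher. Leaving out 1 mouse gave 5 (without control 3) to 14 (without control 4) called members, and 6 without iSOD2 5, with the median log2 fold change at 0.134 to 0.182. The calls over all genes moved too. Of genes with an adjusted p, 120 of 9489 were called higher with all mice and 99 of 15234 without control 3. It was 238 of 10445 without control 4 and 63 of 8384 without iSOD2 5. Atp5l, Cox6c, Cox7b, Cox7c and Usmg5 were called in each of the 10 omissions, Uqcr11 in 9, Atp5e in 7, Atp5j2 and Cox6b1 in 6 and Uqcr10 in 4. The median was 0.0468 with the length trend removed and 0.0418 with GC as well. Members not overlapping, 17 with all mice, numbered 30 in males, 29 in litter A, 16 to 24 when 1 mouse was left out, and 1 with either trend removal. Over all genes, 370 did not overlap in that direction with all mice and 450 to 748 when 1 mouse was left out. With the length trend removed it was 146, and 139 with GC as well. Members called lower, and members wholly below controls, stayed at 0 when any 1 mouse was left out. When 1 mouse was left out, the share difference of Atp5g1 ran from -2.87 to -1.79 points, of Atp5g2 from 0.0765 to 0.417 and of Atp5g3 from 1.63 to 2.56. The causes were not tested.

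Some members changed sign, among them Cyc1, which had passed the adjusted p. With the length trend and then with GC as well, log2 fold changes were -0.112 and -0.106 for Atp5g1, -0.053 and -0.037 for Uqcrc1, -0.0581 and -0.0609 for Atp5o, -0.00601 and -0.00121 for Cyc1, and -0.0687 and -0.0704 for Cox6b2; Atp5d was at -0.021 with length and Uqcrc2 at -0.00455 with both. Sdha was at 0.0222 in females, Atp5s at 0.157 in females and 0.0254 in litter B, and Atp5g1 at -0.0736 in litter A. Cox6b2 was at -0.0354 with covariates, -0.00322 in males, -0.0165 in females and -0.19 in litter B. Leaving out 1 mouse gave -0.0157 to 0.0398 for Atp5g1, -0.0587 to 0.0211 for Sdha, -0.0623 to 0.0462 for Atp5s and -0.115 to 0.131 for Cox6b2. No paired analysis was possible because the genotypes share no replicate numbers by which to pair single mice; litter, which both genotypes share, entered as a covariate with sex (9 called). Cox7b2 and Cox8c had too few counts to be tested, and Cox6b2, near 13 counts, had no adjusted p in DESeq2.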
